A study of Mus musculus with 8 samples.

Results

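Centrosomal protein genes encode the parts of the centrosome, the cell's main organiser of microtubules. Their polysomal mRNA was measured in mouse oocytes arrested at metaphase II (MII) and in one-cell embryos on 8 single-colour microarrays. The members are all probe sets whose only gene symbol in the platform annotation begins with Cep and a digit, or is Pcnt, Cenpj, Ninl, Nin, Plk4, Sass6 or Cdk5rap2. The rule uses no signal, but the family was proposed with earlier results of these arrays known, so the changes below describe it and support nothing about it as a family. The rule found 95 probe sets of 44 genes, out of 45037 probe sets and 18193 genes with a symbol of their own. A probe set is a group of short oligonucleotides on the array that together report 1 signal for a transcript.

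The first group held 4 batches of MII oocytes. The second held 4 batches of embryos at the one-cell stage, kept under α-amanitin, which blocks RNA polymerase II and with it new transcription. Each batch contained 160 to 500 oocytes or embryos, and polysomal RNA from both groups, the mRNA under translation on several ribosomes, was amplified by 2 rounds of in vitro transcription and labelled with biotin. The groups thus differ in stage and in the inhibitor, which cannot be told apart, and nothing used here gives strain, age or mating. Total mRNA was not analysed here, so less mRNA in the cell and less of it on ribosomes cannot be told apart either, nor can fewer contributing cells and less RNA per cell. The labels call the batches independent replicates.

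A centrosome consists of a pair of centrioles, cylinders of microtubules, embedded in pericentriolar material that nucleates microtubules through γ-tubulin. Plk4, Sass6 and their partners start a new centriole beside each old one. Ninein and the appendage proteins anchor microtubules and dock centrioles at the membrane to form cilia. Mouse oocytes lose their centrioles as they develop, and the mouse sperm brings none that persist. The spindles of meiosis and of the first cleavages are thus built by acentriolar microtubule organising centres that contain pericentrin, γ-tubulin, Cep192 and Nedd1. Centrioles reappear later in preimplantation development.

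The arrays were unequal. One-cell array 1 stood apart: its median signal was 71.8 against 26.9 to 37.9 on the other 7 arrays, and its correlations with the other one-cell arrays on log2(intensity + 10) lay between 0.810 and 0.826. The 18 hybridization controls, RNAs normally spiked in at fixed amounts, had a geometric mean of 14879 on it where one-cell arrays 2 to 4 had 857 to 3718 and the oocyte arrays 905 to 1364. The part of these differences in the results was not tested, and values without that array stand beside the main results that move. Leaving it out moved the change of 3 called and 20 uncalled member probe sets by over 1.5 times or turned it. All 17 oocyte markers found on the array lay above the array median on at least 4 arrays, with summed signals of 94447 to 124999 in MII oocytes and 78676 to 134019 in one-cell embryos. The 17 cumulus and granulosa cell markers summed to 958 to 1654 and 774 to 2068, and the 18 sperm and spermatid markers to 447 to 606 and 469 to 1434. Above the array median on at least 4 arrays were 11 of the cumulus and 10 of the sperm markers, while Amh of the first list and Tnp1, Tnp2, Smcp, Tssk2, Cabs1 and Pgk2 of the second were on no array. Of the tested markers, 5 oocyte markers rose and 2 fell (the furthest being Nobox, log2 change 3.77 ± 0.32, adjusted p = 5.71e-07, and Gdf9, -2.17 ± 0.43, adjusted p = 0.00096), the granulosa marker Cyp11a1 rose (1.26 ± 0.43, adjusted p = 0.032), and of the sperm markers Prm2 rose (1.96 ± 0.39, adjusted p = 0.00103) and Akap4 fell (-1.77 ± 0.41, adjusted p = 0.00333). The part of other cells in the results was not tested.

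The largest changes in the family ran both ways. In one-cell embryos Cep44 fell 14.1-fold in 1 of 2 tested probe sets, and Cep70 fell in both of its probe sets (3.55-fold and 2.49-fold). Cep192, a scaffold of the pericentriolar material, fell 3.33-fold. In the other direction, Cep89 rose 6.84-fold in 1 of 2 tested probe sets and Cep41 rose 5.03-fold in 1 of 3. Among the smaller changes, pericentrin rose 1.71-fold in 1 of its 2 probe sets. Plk4, the kinase that starts centriole duplication, fell 1.8-fold in 1 of its 3. These calls were not firm, and held in 6 and 8 of 17 refits with other settings or with 1 array left out. Of the 95 probe sets, 65 from 38 genes were bright enough to be tested, meaning that their signal exceeded the median of the array in question on 4 or more of the 8. Changes are differences in mean log2(intensity + 10), embryo minus oocyte, with the SE from limma and p-values adjusted by Benjamini-Hochberg over all 23336 probe sets tested, at a threshold of 0.05. They understate the change of dim mRNAs.

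In this fit 10 of the 65 tested member probe sets were higher in one-cell embryos, where 19.3 percent of all tested probe sets were, and 12 were lower, where 12.8 percent were. That is 15.4 percent of the members higher and 18.5 percent lower, and 22 called in all, where 32.1 percent of the whole table was. With each of the 38 tested genes represented by its brightest tested probe set, 6 genes were higher and 10 lower, against 20.6 percent and 14.8 percent of all 12359 tested genes, of which 35.3 percent were called either way. The median change of the member probe sets was -0.24, beside 0.17 over all probe sets tested, and that of the member genes -0.44, beside 0.17 over all genes. Without a filter on dim signals the median of the 95 member probe sets was 0.25, beside 0.19 over the whole table. That of the 44 member genes was still -0.26, beside 0.20 over all genes. The direction of the probe set median thus rested on which probe sets were counted. Scaling moved the balance: the members held 5 rises and 17 falls after quantile normalization, where the whole table had 3403 and 3585, and 6 and 11 with each array centred on its median, where it had 2937 and 2841. The median change of the whole table went to -0.12 and -0.15 under these scalings, and that of the member probe sets to -0.32 and -0.56, beside 4511 rises and 2982 falls over the table in the values as deposited. Without one-cell array 4 the members had 5 rises (7.81 percent, beside 15.9 percent of all probe sets), and without MII array 3 they had 6 (9.38 percent, beside 17.3 percent).

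**Figure D1:**
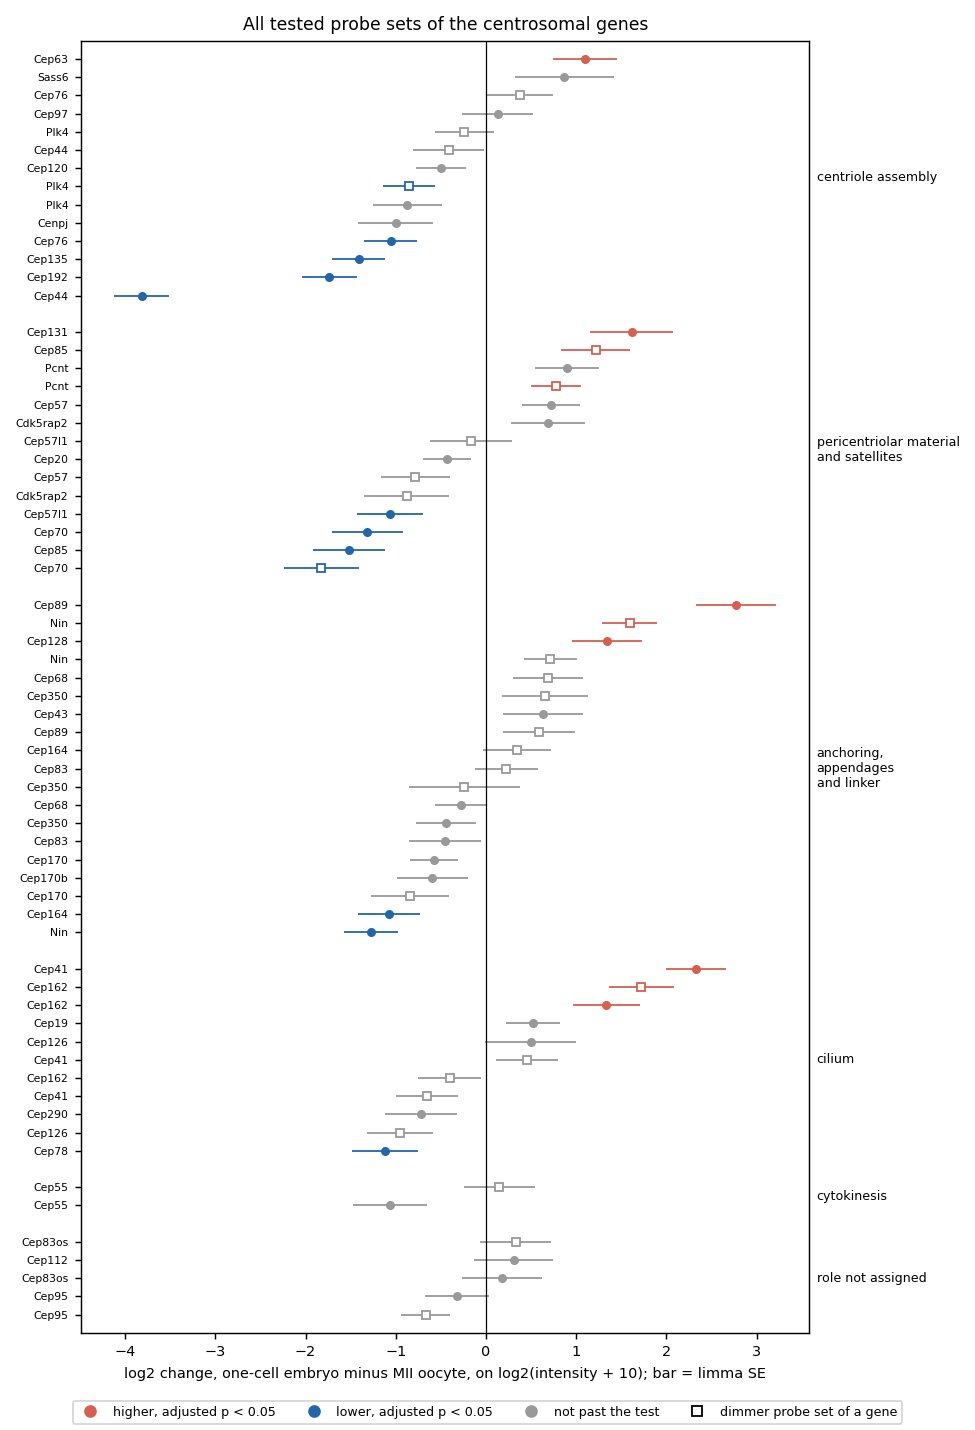
Log2 change (one-cell embryo minus MII oocyte, horizontal axis) with its limma SE for the 65 tested probe sets of the centrosomal genes, grouped by role. Filled circles are the brightest tested probe set of a gene, open squares its dimmer ones, and colour marks adjusted p under 0.05. Cep44 at -3.82 and Cep89 at 2.77 are the extremes, and several genes have probe sets on both sides of 0.

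All 22 called probe sets had groups that did not overlap, which is 22 of the 28 member probe sets without overlap (11 with every one-cell array above every MII array and 17 below). Over all tested probe sets, 19.3 percent were without overlap above and 13.3 percent below. Below, members are grouped by role, and signals are those of arrays 1 to 4 of each group, in that order. The counts by role stand beside 20.6 percent of all tested genes higher and 14.8 percent lower. Each role holds few tested genes, so nothing particular to a role is read from its counts.

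Of the 12 genes that build the centriole, 10 were tested, and by their brightest tested probe set 4 fell, 1 rose and 5 did not pass. Cep44 is needed for a new centriole to mature into a centrosome. Its brightest probe set (1434462_at) read 1337, 733, 944 and 636 on the MII arrays and 71.2, 43.1, 58.7 and 42.6 on the one-cell arrays. Every one-cell value was thus far below the lowest oocyte value, and on array 1 it lay just below that array's median. The change was -3.82 ± 0.30 (adjusted p = 2.83e-07). The gene's other tested probe set (1440773_at) did not pass (-0.42 ± 0.39, adjusted p = 0.479), with 126 to 393 in oocytes and 90.7 to 260.3 in embryos, and averaged over the pair the gene's change was -2.12 ± 0.25 (adjusted p = 2.38e-05).

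Cep192 recruits Plk4 to centrioles and Aurora A and γ-tubulin to the pericentriolar material. Its tested probe set (1428727_at) read 1110, 695, 549 and 547 in MII oocytes and 181, 280.1, 215 and 149 in one-cell embryos, a change of -1.74 ± 0.31 (adjusted p = 0.000385). The groups were far apart, and oocyte array 1 was the highest. Cep135, a part of the cartwheel and the centriole wall, gave 401, 436, 446 and 451 in oocytes (1444201_at). These 4 values lay close together, and the embryo arrays read 165, 104, 139 and 248. Cep135 changed by -1.41 ± 0.29 (adjusted p = 0.00145).

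Cep76, which restrains centriole reduplication, fell in its brighter probe set (1437209_at, -1.06 ± 0.30, adjusted p = 0.0112). Its signals were 664, 428, 426 and 272 in oocytes and 177, 203, 216 and 203 in embryos, where the 4 values were tight. The dimmer probe set of Cep76 did not pass (0.37 ± 0.37, adjusted p = 0.496), and the mean of both missed the test (-0.34 ± 0.27, adjusted p = 0.364). Cep63, which with Cep152 brings Plk4 to the mother centriole, was the gene of this role that rose (1.10 ± 0.35, adjusted p = 0.0251). It read 37.8, 71.2, 42.4 and 56.9 in oocytes and 212, 95, 89.7 and 114 in embryos (1438409_at), so all embryo values were higher and array 1 was the highest. That call was lost after quantile normalization (0.74, adjusted p = 0.0663), without a filter on dim signals (adjusted p = 0.0533) and without MII array 1, MII array 3 or one-cell array 4 (adjusted p = 0.0759, 0.0704 and 0.0511).

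Plk4 had 3 tested probe sets, all with a change below 0. The brightest (1419838_s_at) read 4900, 5973, 6171 and 8233 in oocytes and 1630.5, 4722, 5031 and 3406 in embryos, with embryo array 3 above the lowest oocyte array, and did not pass (-0.87 ± 0.39, adjusted p = 0.1, or -0.52, adjusted p = 0.147 without one-cell array 1). The dimmest (1452115_a_at) passed (-0.85 ± 0.29, adjusted p = 0.0329), with 1305, 1186, 1629 and 1594 in oocytes against 624, 617, 1141 and 841 in embryos. The remaining one (1426580_at) read 1325 to 2199 in oocytes and 956 to 2274 in embryos (-0.24 ± 0.32, adjusted p = 0.635, or -0.01, adjusted p = 0.989 without one-cell array 1). The single Plk4 call held in 8 of 17 refits with other settings or with 1 array left out, and its adjusted p ranged from 0.0129 to 0.112. Leaving out MII array 1, 3 or 4 or one-cell array 2 or 4 ended it. The mean of the 3 probe sets did not pass (-0.65 ± 0.29, adjusted p = 0.0983).

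Cenpj, which sets centriole length, read 2844, 1633, 2476 and 1297 in oocytes and 374, 1547, 1172 and 1327 in embryos (1437643_at). Its groups overlapped and it did not pass (-1.003 ± 0.41, adjusted p = 0.0755). Without one-cell array 1, the lowest, the change was -0.55 (adjusted p = 0.174). Of 17 refits, 1 called it lower, that without one-cell array 2 (-1.22, adjusted p = 0.0445). Sass6, the protein of the cartwheel hub, was dim and uneven, with 46.2, 64.3, 12.4 and 28.1 in oocytes against 190, 103, 51.2 and 18.6 in embryos (0.87 ± 0.55, adjusted p = 0.265, 1448016_at, or 0.42, adjusted p = 0.574 without one-cell array 1). Its other probe set was too dim to be tested, with 10.8, 5.7, 1.7 and 21 in oocytes and 63.9, 37.7, 52.6 and 47.4 in embryos, without overlap. Cep120, a partner of Cenpj in centriole elongation (-0.50 ± 0.28, or -0.93, adjusted p = 0.0451 after quantile normalization), and Cep97, part of the cap that stops growth at the centriole's end (0.13 ± 0.39, or -0.24, adjusted p = 0.598 without one-cell array 1), did not pass either. Cep152, the platform onto which Plk4 is loaded, was not tested, because only 2 of its 8 values lay above the array median. It read 22.7, 4.2, 28.4 and 27.8 in oocytes and 29.5, 8.2, 48.8 and 46.4 in embryos. The 2 probe sets of Cep295, also a maturation factor of the centriole, ranged from 0.9 to 101.6 and were not tested.

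**Figure D2:**
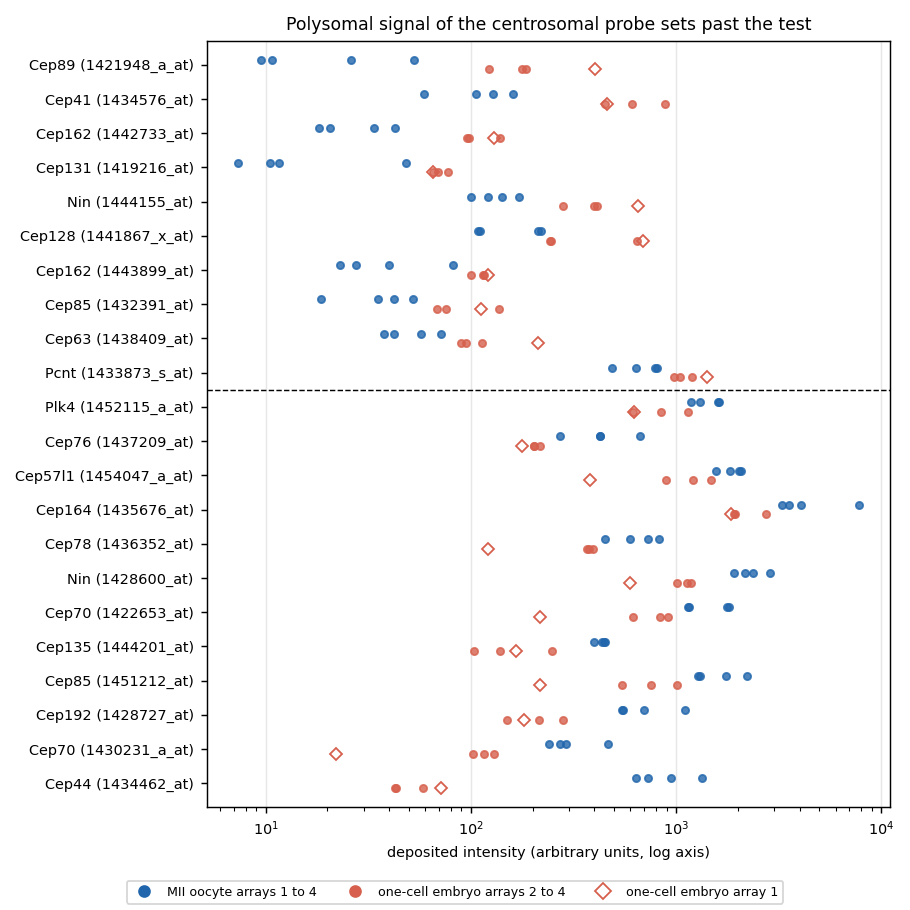
Deposited intensity on each array (log axis) for the 22 centrosomal probe sets past the test, ordered by change, with the 12 that were lower below the dashed line. Blue circles are the MII arrays, red circles one-cell arrays 2 to 4 and open diamonds one-cell array 1. In every row the 2 groups are apart, and array 1 is the lowest one-cell value for 8 of the 12 falls and the highest for 6 of the 10 rises.

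Among 9 genes of the pericentriolar material and its satellites, the small granules that carry proteins to it, 8 were tested, with 3 lower, 1 higher and 4 that did not pass. Pcnt, or pericentrin, holds the pericentriolar material together and is a core part of the oocyte's organising centres. Its 2 probe sets had nearly the same oocyte mean (both 682). The first (1433873_s_at) read 807, 639, 794 and 489 in oocytes and 1421, 973, 1049 and 1203 in embryos, with no overlap, and rose by 0.77 ± 0.28 (adjusted p = 0.0439). The other (1454749_at) read 498, 788, 936 and 506 in oocytes and 2332, 756, 1225 and 1061 in embryos, overlapped and missed the test (0.90 ± 0.35, adjusted p = 0.0627). Its change was 0.59 (adjusted p = 0.142) without one-cell array 1, the highest, 0.58 (adjusted p = 0.308) after centring and 1.13 (adjusted p = 0.0275) without one-cell array 2, while the mean of both passed at 0.83 ± 0.27 (adjusted p = 0.0272). The call of the first held in 6 of 17 refits. It was lost without one-cell array 1 (0.67, adjusted p = 0.0587), 3 or 4, without MII array 2, 3 or 4, and with the replicate number as a block, with adjusted p-values over all refits from 0.0326 to 0.417. Its lowest value came with each array centred on its median (0.45, adjusted p = 0.417).

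Cdk5rap2, which activates γ-tubulin complexes, had a brighter probe set with 50.1, 263, 83.4 and 159 in oocytes and 254, 127, 208 and 209.5 in embryos (1452618_at, 0.69 ± 0.41, adjusted p = 0.234). Its dimmer tested one (1443976_at) leaned the other way, with 44.7, 55.3, 43.6 and 88.1 in oocytes and 61.5, 13.7, 37.2 and 10.4 in embryos (-0.88 ± 0.47, adjusted p = 0.179), and passed without one-cell array 1 (-1.21, adjusted p = 0.0322) and after quantile normalization (-1.21, adjusted p = 0.0369). Cep57, a pericentriolar protein that links to Cep63, likewise had 1 probe set with every embryo array above the oocytes (0.72 ± 0.32, 123, 74.4, 135 and 89.5 in oocytes against 137, 143, 291 and 166 in embryos). Its other one changed by -0.79 ± 0.38. Neither passed with all arrays (adjusted p = 0.107 and 0.134). The first passed as higher without one-cell array 1 (0.83, adjusted p = 0.0452). The second stayed uncalled in 13 of the 16 refits that tested it. In the others it passed as lower, as without MII array 2 (-1.08, adjusted p = 0.0408), with adjusted p down to 0.0294. The mean of both probe sets was -0.03 ± 0.30 (adjusted p = 0.947). The related gene Cep57l1 fell in its brighter probe set (1454047_a_at, -1.07 ± 0.37, adjusted p = 0.0354), with 2017, 2076, 1835 and 1566 in oocytes and 380.5, 1212, 1482 and 892 in embryos. Embryo array 1 was far below the rest, and without it the change missed the test at -0.67 (adjusted p = 0.0581). The call held in 8 of 17 refits, with adjusted p-values up to 0.115, and the gene's other probe set did not pass (-0.17 ± 0.45, adjusted p = 0.828).

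Cep70 interacts with γ-tubulin and helps to organise the microtubule array. Both of its probe sets fell, which makes it the only one of the 22 members with several tested probe sets in which all of them passed in 1 direction. The brighter (1422653_at) read 1815, 1763, 1152 and 1147 in oocytes and 218, 839.8, 917 and 619.6 in embryos (-1.32 ± 0.39, adjusted p = 0.0164). The dimmer (1430231_a_at) read 464, 290.2, 272 and 241 in oocytes and 22.1, 102, 116 and 130.2 in embryos (-1.83 ± 0.42, adjusted p = 0.00295). Embryo array 1 was lowest for both, and without it they changed by -0.87 (adjusted p = 0.0226) and -1.34 (adjusted p = 0.0015). The brighter one lost its call after quantile normalization (-1.30, adjusted p = 0.0529), after centring (-1.63, adjusted p = 0.0645) and without MII array 1 (adjusted p = 0.0516).

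Cep85, which binds the centriole protein Stil and the kinase Nek2, gave opposite results in its 2 probe sets. The bright one (1451212_at) went down from 2218, 1278, 1755 and 1304 to 216, 755, 1013 and 546 over the 4 arrays of each group (-1.52 ± 0.40, adjusted p = 0.00728, and -1.08, adjusted p = 0.00895 without one-cell array 1). The dim one (1432391_at) read 52.2, 42.2, 18.6 and 35.1 in oocytes and 112, 68.6, 75.5 and 138 in embryos (1.21 ± 0.38, adjusted p = 0.0208). Their mean changed by -0.15 ± 0.26 (adjusted p = 0.7), so the direction of Cep85 is not settled by these arrays. The rise of the dim one was lost after quantile normalization (0.82, adjusted p = 0.0975), after centring (0.90, adjusted p = 0.0744) and without MII array 3 or one-cell array 4 (adjusted p = 0.0792 and 0.0826).

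Cep131, a satellite protein needed for cilia, read 7.3, 10.5, 48.2 and 11.6 in oocytes and 65.2, 65.7, 77.6 and 69 in embryos (1419216_at, 1.62 ± 0.46, adjusted p = 0.0123). The oocyte values other than that of array 3 were near the bottom of the scale and below the array median, so the size of this rise is poorly set. Of 17 refits, 12 tested this probe set, and the call held in 10 of them. It was lost after quantile normalization (1.26, adjusted p = 0.0579) and after centring (1.30, adjusted p = 0.0562). The signal lay above the array median on 4 arrays, the fewest that the filter allows. On one-cell array 1 it lay below (65.2 against a median of 71.8). The probe set was not tested without MII array 3, without one-cell array 2, 3 or 4, or with a stricter filter. Cep20, another satellite protein, did not pass (-0.43 ± 0.26, adjusted p = 0.236), and Cep72, a satellite and pericentriolar protein, was below the median on all 8 arrays (1.5 to 3.6 in oocytes and 2.1 to 9.7 in embryos) and was not tested.

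The 12 genes for anchoring, appendages and the linker between centrioles had 10 tested members, with 2 lower, 2 higher and 6 that did not pass. Nin, or ninein, anchors the minus ends of microtubules at the subdistal appendages. Its brightest probe set (1428600_at) fell, with 2861, 2173, 2361 and 1927 in oocytes and 599, 1187, 1128 and 1007 in embryos (-1.27 ± 0.30, adjusted p = 0.00377). A dimmer one (1444155_at) rose, with 100.5, 172, 142 and 121 in oocytes and 654, 281, 397 and 412 in embryos (1.59 ± 0.31, adjusted p = 0.00083). The remaining one (1419078_at) read 339, 402, 630.2 and 472 in oocytes and 569.5, 786, 1039 and 648 in embryos, missed the test (0.71 ± 0.29, adjusted p = 0.0772) and passed as higher without one-cell array 1 (0.83, adjusted p = 0.0307). Both opposed calls held in all 17 refits, and the mean of the 3 probe sets was 0.34 ± 0.21 (adjusted p = 0.228), so no single direction can be given for Nin.

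Cep89, a distal appendage protein, had the largest rise in the family. Its brightest probe set (1421948_a_at) read 52.6, 9.5, 26.2 and 10.7 in oocytes and 405, 122, 185 and 177 in embryos. All embryo values were well above the oocyte values, of which only that of array 1 exceeded its array's median, so the 6.84-fold rise is poorly set in size (2.77 ± 0.44, adjusted p = 0.000158). A second tested probe set of Cep89 did not pass (0.58 ± 0.40, adjusted p = 0.303), and the mean of both rose by 1.68 ± 0.38 (adjusted p = 0.00317). Cep128 of the subdistal appendages rose as well (1441867_x_at, 1.34 ± 0.39, adjusted p = 0.0138), from 109, 219.9, 111 and 212 to 693, 247, 244 and 647. Embryo arrays 2 and 3 lay only just above the highest oocyte array. The call was lost after quantile normalization (1.11, adjusted p = 0.0908), after centring (1.02, adjusted p = 0.0597) and without one-cell array 4 (adjusted p = 0.058), and the suffix of this probe set marks oligonucleotides that can match other transcripts.

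Cep164, the distal appendage protein that starts cilium formation, fell in its bright probe set (1435676_at, -1.07 ± 0.34, adjusted p = 0.0227). It read 3286, 7821, 3559 and 4064 in oocytes, where array 2 was far above the rest, and 1849, 1919.9, 1931 and 2732 in embryos. Without MII array 2 the change was -0.80 (adjusted p = 0.0838) and after quantile normalization -0.56 (adjusted p = 0.182), both short of the threshold. The other tested probe set of Cep164 did not pass (0.34 ± 0.38, adjusted p = 0.553). Cep170, a subdistal appendage protein that binds microtubules, had no overlap in its brighter probe set (596 to 857 in oocytes and 388 to 573 in embryos) but did not pass (-0.58 ± 0.27, adjusted p = 0.114). Its dimmer one passed as lower without one-cell array 1 (-1.10, adjusted p = 0.0363). That probe set stayed uncalled in 13 of the 16 refits that tested it, with adjusted p down to 0.0209 in the others. The remaining members tested in this role were Cep170b, the close relative of Cep170, the appendage protein Cep83, the linker protein Cep68, the anchoring protein Cep350 and its partner Cep43. None passed, with changes of their 9 tested probe sets from -0.60 to 0.69. The lowest of these, of Cep170b, was -0.24 (adjusted p = 0.633) without one-cell array 1. A Cep350 probe set (1452470_at) stayed uncalled in 16 of 17 refits and passed as lower in the other (adjusted p = 0.0249).

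Ninl, a relative of ninein, and Cep250, the linker protein to which Nek2 binds, were not tested. Ninl read 8.3, 2.3, 14.1 and 7.5 in oocytes and 5.2, 3.3, 12.8 and 0.2 in embryos, at or near the bottom of the scale. Cep250 read 0.9, 16.8, 1 and 1 in oocytes and 83.5, 9.6, 33.7 and 51.8 in embryos, with its 3 values above the array median all on embryo arrays.

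Of the 6 genes best known from cilia, 2 rose, 1 fell and 3 did not pass, judged by their brightest probe sets. Cep41, which is needed for the modification of tubulin in cilia, read 161, 59, 106 and 128 in oocytes and 463, 451, 883 and 612 in embryos (1434576_at). The lowest embryo value was well over the highest oocyte value, and the change was 2.33 ± 0.33 (adjusted p = 5.62e-05). The other 2 tested probe sets of Cep41 did not pass and pointed in opposite directions (0.45 ± 0.35 and -0.65 ± 0.34), and the mean of the 3 was 0.71 ± 0.24 (adjusted p = 0.0336). Cep162, which binds the axoneme at the base of the cilium, rose in 2 of 3 tested probe sets. The first (1442733_at) read 18.3, 42.7, 20.5 and 33.8 in oocytes and 130.4, 138, 95.5 and 97.8 in embryos (1.72 ± 0.36, adjusted p = 0.00146). The second (1443899_at) read 27.5, 81.5, 23.1 and 39.8 in oocytes and 121, 116, 99.9 and 115 in embryos (1.33 ± 0.37, adjusted p = 0.0109, lost after quantile normalization at 0.89, adjusted p = 0.0694), and the third changed by -0.40 ± 0.35.

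Cep78, a protein of mature centrioles, fell (-1.12 ± 0.36, adjusted p = 0.0251). It read 824, 731, 599 and 451 in oocytes and 121, 394, 370 and 376 in embryos (1436352_at), where array 1 was far below the other 3. Without that array the change was -0.73 (adjusted p = 0.0444), and the call was lost without a variance trend (adjusted p = 0.0509), after centring (-1.44, adjusted p = 0.072) and without MII array 1 or 2 (adjusted p = 0.0775 and 0.0583). Cep290, a gatekeeper of the ciliary transition zone, read 56.1, 80.4, 50.1 and 33.7 in oocytes and 30.7, 31.3, 28.8 and 22.6 in embryos (1425642_at). Its groups did not overlap, yet the change did not pass (-0.72 ± 0.40, adjusted p = 0.195, or -1.03, adjusted p = 0.0475 after quantile normalization). Cep19 (0.52 ± 0.30), a ciliary protein carried to the centriole by Cep350 and Cep43, and the 2 probe sets of Cep126 did not pass either, although the Cep126 probe set 1445173_at had no overlap (51.4 to 80.8 in oocytes against 26.5 to 33.7 in embryos) and passed as lower without one-cell array 1 (-0.99, adjusted p = 0.0227).

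Cep55 acts at the midbody, where it recruits the machinery that cuts dividing cells apart. Its bright probe set (1452242_at) read 5423, 4396, 4328 and 3700.5 in oocytes and 784, 3544, 2748 and 2581 in embryos. All embryo values were below all oocyte values, with array 1 far below, and the change missed the threshold (-1.06 ± 0.41, adjusted p = 0.0597). Without one-cell array 1 the change was -0.59 (adjusted p = 0.0803) and after quantile normalization -0.60 (adjusted p = 0.226). It passed without one-cell array 2 (-1.31, adjusted p = 0.0283) and with the stricter filter at the 75th percentile (adjusted p = 0.045). The other Cep55 probe set differed by 0.15 ± 0.39, or -0.14 (adjusted p = 0.807) without one-cell array 1. Among 4 genes with no role assigned here, Cep112, Cep95 and Cep83os, a long non-coding RNA named for its place opposite Cep83, did not pass, and Cep295nl was below the median on all 8 arrays. The nearest of them was a Cep95 probe set without overlap (1440280_at, 524 to 643 in oocytes and 269.6 to 485 in embryos, -0.67 ± 0.27, adjusted p = 0.0707), which passed after quantile normalization (-0.85, adjusted p = 0.0386).

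The probe sets of 1 gene often differed. Of the 22 members with several tested probe sets, 13 had changes of both signs, and 2, Nin and Cep85, had calls in both directions. Mixed signs were not counted over all genes, so nothing particular to the members is read from the 13. Over all 4787 genes with several tested probe sets, 247 (5.16 percent) had calls in both directions. Representing a gene by the mean of its tested probe sets gave 7 members higher and 6 lower, in place of 6 and 10. That is 18.4 and 15.8 percent of the tested members, beside 22.1 and 12.8 percent of all genes in that fit. The median change of the member genes was then -0.13, beside 0.20 over all genes. The files do not say which part or form of a transcript each probe set covers, and what makes them differ was not tested.

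**Figure D3:**
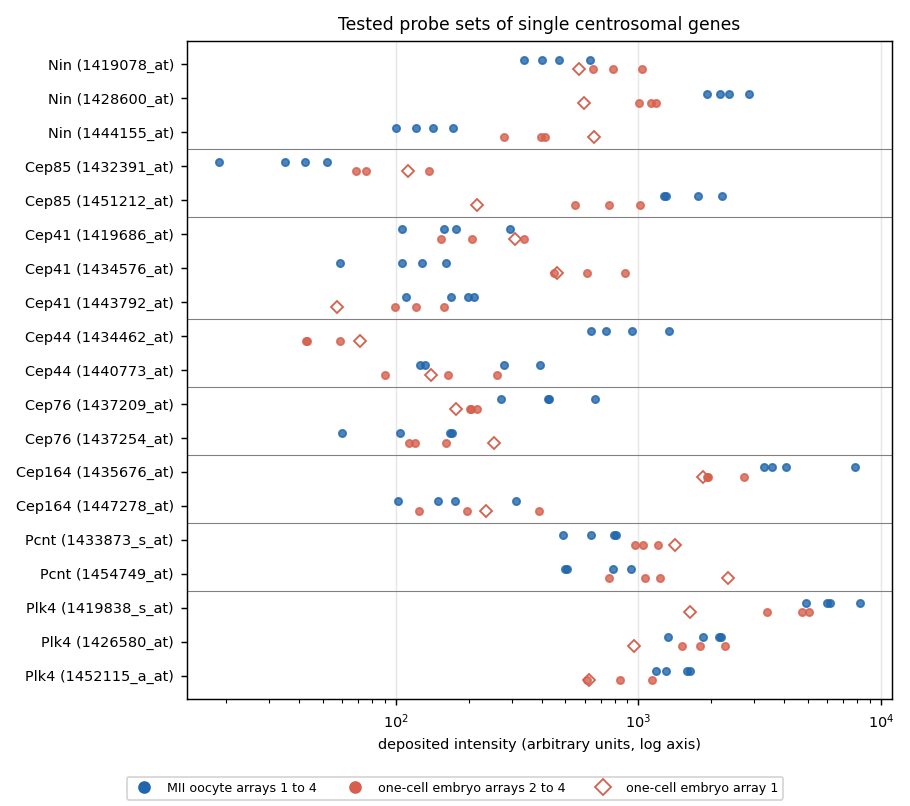
Deposited intensity on each array (log axis) for the tested probe sets of Nin, Cep85, Cep41, Cep44, Cep76, Cep164, Pcnt and Plk4, genes chosen after their values were seen. Blue circles are MII arrays, red circles one-cell arrays 2 to 4 and open diamonds one-cell array 1, with lines between genes. The embryo values of Nin lie below the oocyte values in 1 probe set and above them in another, and those of Cep85 do the same.

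All falls lay among the brighter member probe sets. At the median signal of all tested probe sets (a mean over the 8 arrays of 108), 43 member probe sets lay above, with 12 falls (27.9 percent) and 5 rises (11.6 percent). Of all tested probe sets above it, 22.5 percent fell and 27.5 percent rose. The other 22 member probe sets held 5 rises (22.7 percent) and 0 falls in limma (1 at an unadjusted p under 0.05), where 11.1 percent of all such probe sets rose and 3.09 percent fell. The median change of the members was -0.46 above and 0.41 below, beside 0.05 and 0.22 over all probe sets. The part of scanner background and scaling in this split was not tested.

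The 30 member probe sets left untested include all those of 6 genes, Cep152, Cep250, Cep72, Cep295, Cep295nl and Ninl. Of the 30, 15 lay at or below the array median on all 8 arrays, and none exceeded a signal of 135 on any array. One-cell array 1 gave the highest of the 8 signals for 17 of the 30. No tested member probe set lay at or below the median on all 4 arrays of a group, but for 14 all 4 arrays of 1 group lay above it and fewer of the other, so that the brighter group sufficed for the filter. Of these 14, 6 were called. The share called among all probe sets of this pattern was not counted, so nothing is read from that count. Among the 14, 5 had 1 array of the other group above the median. These were Cep89 (1421948_a_at), which was called, and Cdk5rap2 (1443976_at), Cep126 (1445173_at), Cep170 (1437154_at) and Cep290, which were not.

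Other genes of the centrosome came from 4 lists drawn up from general knowledge, with the members taken out. Haus6, a subunit of the augmin complex, was counted both for centriole assembly and for the γ-tubulin ring and augmin. It did not pass (0.74 ± 0.31, adjusted p = 0.0829), and both medians include it. Nedd1 was counted both for the pericentriolar material and for the γ-tubulin ring and augmin. Of all tested genes, 20.6 percent rose and 14.8 percent fell, and nothing is read from the counts of these short lists. In the list for centriole assembly and length, 1 of 10 tested genes rose and 3 fell, with a median change of -0.12 beside 0.17 over all genes. Cetn2, a centrin of the centriole lumen, rose from 121 ± 44 (SD, n = 4) to 841 ± 163 (2.74 ± 0.30, adjusted p = 5.06e-06). Ccp110, the cap protein that works with Cep97, fell from 2264 ± 422 (SD, n = 4) to 817 ± 203 (-1.47 ± 0.29, adjusted p = 0.000913), and Cetn3, another centrin, fell from 557 ± 249 (SD, n = 4) to 166 ± 38.7 (-1.60 ± 0.33, adjusted p = 0.00145).

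In the list for the pericentriolar material and satellites, 3 of 11 tested genes rose and 1 fell, with a median of -0.40. The spindle protein Tacc3 rose from 95.6 ± 35.9 (SD, n = 4) to 1688 ± 672 (3.98 ± 0.33, adjusted p = 3.56e-07), as did the satellite protein Ofd1 (2.004 ± 0.32, adjusted p = 0.000166), and the scaffold Akap9 fell (-1.29 ± 0.27, adjusted p = 0.00155). In the list for appendages, anchoring and the linker, 2 of 7 rose and 2 fell, with a median of -0.79. Nek2, the kinase that dissolves the linker, rose (2.20 ± 0.35, adjusted p = 0.00014), and of the distal appendage proteins Sclt1 fell (-1.40 ± 0.28, adjusted p = 0.00109) and Fbf1 rose (1.67 ± 0.46, adjusted p = 0.00971). The γ-tubulin ring and the augmin complex, which nucleate microtubules in acentriolar spindles, had 1 rise and 1 fall among 16 tested genes and a median of 0.19. These were the augmin subunits Haus7 (2.46 ± 0.46, adjusted p = 0.000584, from a dim oocyte signal of 29.5 ± 24.3, SD, n = 4) and Haus4 (-1.07 ± 0.35, adjusted p = 0.027). Mzt2, a small part of the γ-tubulin ring, missed the test (1.05 ± 0.39, adjusted p = 0.0526), as did Tubg1 itself (0.71 ± 0.32, adjusted p = 0.111) and Nedd1, which brings the ring to the centrosome and spindle (-0.66 ± 0.30, adjusted p = 0.107).

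The calls in the family differed in how firmly they held. Over 17 refits with another normalization, offset, filter, variance model, weighting or block, or without 1 array, all 22 called probe sets kept their sign, while 14 of the 43 uncalled ones turned theirs in at least 1. For 11 of the 22 called ones, 4 higher and 7 lower, the call held in each refit that tested them. Among these were the only tested probe sets of Cep135 and Cep192 and both opposed ones of Nin. The others were 1 of several tested probe sets each of Cep89, Cep41, Cep162, Cep76, Cep44, Cep85 and Cep70. The remaining 11 lost it in at least 1. Of the 43 uncalled probe sets, 14 were called in at least 1 refit, and not every such refit is given above. Without one-cell array 1, 20 of the 22 stayed called, Pcnt and Cep57l1 were lost, and 5 probe sets were gained, of Nin, Cep57, Cep170, Cdk5rap2 and Cep126.

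**Figure D4:**
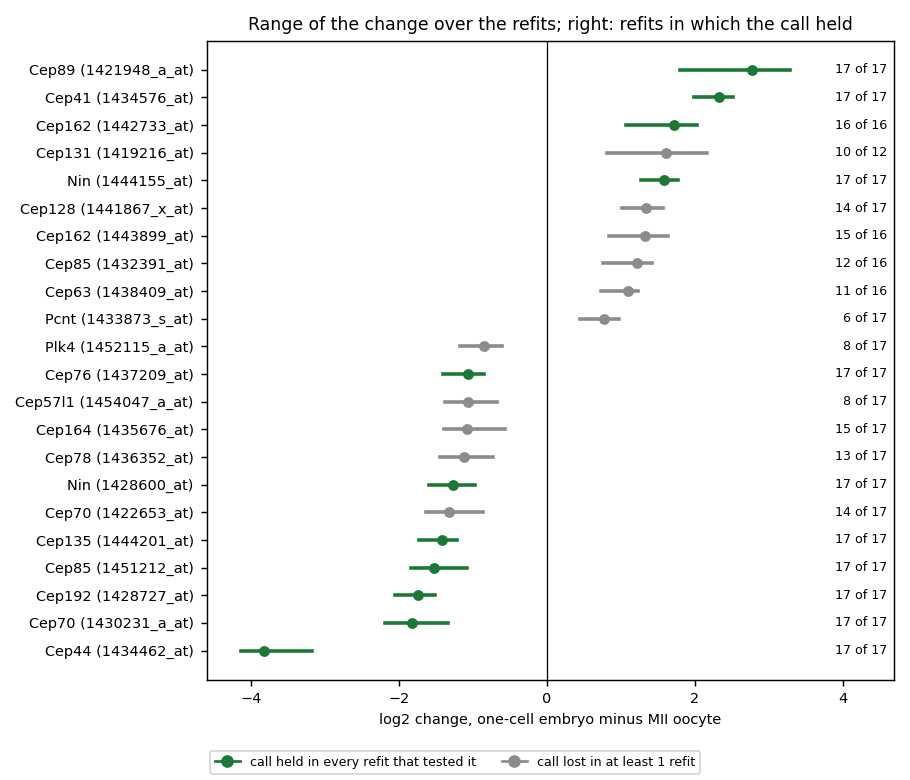
Log2 change (one-cell embryo minus MII oocyte) of the 22 called centrosomal probe sets, with points for the value with all arrays and bars for the lowest and highest value over the refits. Numbers at the right give the refits in which the call held, of those that tested the probe set. Green rows kept the call in each of them, such as Cep44 and Cep89, and the call of the Pcnt probe set held in 6 of 17.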

How the data were processed

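The values deposited by the authors are linear intensities in arbitrary units, 1 for each probe set on an array. Per the labels, polysomal RNA went through 2 rounds of amplification and was labelled with biotin, while the software, scaling and genome build behind the arrays are not stated in any source used. The trimmed mean (lowest and highest 2 percent left out) was 150.0 on all 8 arrays, which marks scaling to 1 mean before deposit, and the values were used as they stood. The table held 45101 probe sets, and 64 controls were left out of the tests. Of the rest, 34945 had 1 gene symbol, 932 several and 9160 none. All 44 member symbols are in the RefSeq gene table.

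An offset of 10 was added before log2. Probe sets above the array median on at least 4 arrays entered limma 3.58.1 (R 4.3.3) (lmFit, then eBayes with trend), with two-sided tests and Benjamini-Hochberg adjustment. The fit was checked on simulated data. Members, roles and lists were chosen with earlier results of these data known. Named with all values were the 8 largest rises and falls among called probe sets without overlap and a panel of 14 genes, and values of other members were added after they were seen. Of each pathway list, the 3 genes with the smallest p were named, and Tubg1 and Nedd1 were added after their values were seen. Precision is limited by having 4 arrays in each group. Alternatives covered normalization (quantile, median centring), offsets of 1 and 50, the filter, the variance trend, array weights, the replicate block, each array left out, the mean over probe sets, a threshold of 0.01 and a 2-fold minimum. In the labels, same-numbered arrays of the 2 groups share only a number.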

Additional observations from a re-analysis of the deposited data

Results flagged for a closer look

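In groups of 4 arrays, a value was singled out where its distance to the nearest other value was a larger share of the group's whole range than Dixon's critical value at 95 percent. This was so in 5 of 130 groups (3.85 percent) of the tested member probe sets, and chance alone gives about 1 in 20. Cep131 read 48.2 on MII array 3, where the remaining oocyte arrays gave 7.3 to 11.6. Cep20 read 450.5 on the same array against 526.5 to 534.9. On one-cell array 1, Cep78 read 121.2 where arrays 2 to 4 gave 370 to 394.1, and Cep97 read 209.5 against 62.6 to 80.7. Cep164 read 2731.7 on one-cell array 4 against 1848.6 to 1930.6. Of these, Cep131, Cep78 and Cep164 were called.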

How the results depend on the processing

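With all arrays, 10 member probe sets were called higher and 12 lower, and 6 and 10 member genes. Rises of member probe sets numbered 5 after quantile normalization (7.69 percent, beside 14.6 percent of all probe sets). They numbered 6 after centring (9.23 beside 12.6 percent) and 5 with the 75th percentile filter (11.9 beside 27.8 percent). That filter gave 14 falls of member probe sets (33.3 beside 25.3 percent). Rises of member genes numbered 2 with quantile normalization (5.26 beside 15.7 percent of all genes) and 3 with that filter (10.7 beside 28.1 percent). At an adjusted p under 0.01 the member probe sets held 4 rises and 6 falls and the member genes 2 and 5, because the threshold is stricter. For probe sets that is 6.15 and 9.23 percent, beside 14 and 7.59 percent of all probe sets. For genes it is 5.26 and 13.2 percent, beside 15.1 and 9.09 percent of all genes. With probe sets averaged, 6 member genes fell (15.8 percent, beside 12.8 percent of all genes). Over the whole table, rises numbered 2937 after centring and falls 1771 at the threshold of 0.01. Leaving out 1 array at a time gave 5 to 11 rises and 8 to 14 falls of member probe sets, 2 to 6 and 7 to 12 of member genes, and 3508 to 4439 and 2222 to 3251 over the table. The cause of these shifts was not tested. With probe sets averaged, the sign turned for Cdk5rap2 (-0.10), Cep57 (-0.034) and Nin (0.34) against their brightest probe sets. In the refits of single probe sets, 14 of the 43 uncalled ones turned sign at least once, and 0 of the 22 called ones. With the replicate number as a block, 9 member probe sets rose and 12 fell (13.8 and 18.5 percent, beside 18.5 and 12.4 percent of all probe sets). Deviations of same-numbered arrays correlated at -0.16, -0.11, 0.14 and 0.04. No one-cell array correlated best with the MII array of its number. The numbers are not taken to pair the arrays. With 4 arrays in a group, these values cannot show whether same-numbered batches were handled together. The call lost under the block was that of Pcnt (adjusted p = 0.0606).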
